A study of Mus musculus with 24 samples.

Results

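Wild-type (WT) mouse liver was compared between subjective dawn and subjective dusk. Circadian time (CT) is given in hours and was projected from the light cycle that came before constant darkness, not read from each animal. The dawn samples were the 4 WT libraries titled CT22 and CT2, which lie on either side of subjective dawn, and the dusk samples were the 4 WT libraries titled CT10 and CT14, on either side of subjective dusk. These 8 of the 24 libraries of the series were taken by their titles, for a contrast that was set with earlier results of these data known. Each was made from liver of male C57BL/6 mice with free access to chow, with 2 libraries at each time point. The study's general methods for tissue collection describe adult males in constant darkness, and its sequencing methods and the labels do not repeat the age or the lighting. The remaining WT libraries were from CT6 and CT18, and the other 12 libraries covered the same 6 time points in delta-RRE (ΔRRE) males of the same strain. In ΔRRE mice both ROR response elements (RREs) at the start of Bmal1, listed in the files as Arntl, are deleted from both alleles in mice of 1 line, which was made by genome editing of embryos, and WT mice do not carry this deletion. The labels do not say whether the replicates of a time point were separate mice, so the p-values measure the spread between these samples, which may be technical. The RNA came from homogenized liver, and in such bulk RNA fewer cells of a type and less RNA per cell cannot be told apart.

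The circadian clock of the hepatocyte is a transcriptional feedback loop. The activator, a dimer of BMAL1 with CLOCK or NPAS2, binds E-boxes and drives the period and cryptochrome genes, whose products return to inhibit it. The same activator drives the nuclear receptors REV-ERBα and β, which silence Arntl through RREs, and the activator DBP, which competes with the repressor NFIL3 at D-boxes. In mouse liver the loop times the enzymes of lipid, bile acid, glucose and heme metabolism to the daily alternation of feeding and fasting.

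The 3 kinds of element were searched for in the promoters of the 37 clock genes and genes of widest difference that were called between dawn and dusk, and 8 of them held at least 1. Of these 37 genes, 29 had a promoter window in the RefSeq table for GRCm38.p6, which holds the 250 bases before and the 50 bases after each transcript start. Both strands were searched for the E-box CACGTG, the D-box TTANNTAA and the RRE written as TAGGTCA or TGGGTCA. The study's form of the RRE is longer, and its leading A or T positions were not required in this search. Of the 8226 of 11244 tested genes with a window, 12.2% held the E-box, 4.8% the D-box and 6.49% the RRE. Among the 29 genes, 5 held the E-box, 3 the D-box and 2 the RRE. The windows of the clock genes Clock, Npas2, Cry2, Nr1d1, Nr1d2 and Dbp held none of the 3. Since 73.2% of the tested genes had a window, shares were not compared between gene sets, and a match of letters is a description, not a binding site. The windows are shown because they carry the elements through which the loop above is known to act, with the motif in capitals, on the strand of the gene and with the mm10 (GRCm38) position.
E-boxes were found at Ciart, Per1, Tef and Coq10b, all higher at dusk, and at Cry1, higher at dawn. A further E-box of Ciart, in the window chr3:95882255-95882284, is not printed because that window overlaps another of Ciart below.
Ciart, chr3:95882327-95882356, before the gene model: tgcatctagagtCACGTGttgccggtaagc
Ciart, chr3:95882269-95882298, before the gene model: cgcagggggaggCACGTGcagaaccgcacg
Per1, chr11:69098771-69098800, in an intron: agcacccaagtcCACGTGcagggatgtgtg
Tef, chr15:81802534-81802563, in the untranslated part of an exon: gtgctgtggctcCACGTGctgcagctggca
Tef, chr15:81811264-81811293, in an intron before a second start: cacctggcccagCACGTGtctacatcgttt
Coq10b, chr1:55052680-55052709, before the gene model: ggcggcactggaCACGTGcgtcagcctagc
Cry1, chr10:85185097-85185126, before the gene model: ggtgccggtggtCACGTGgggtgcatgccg
D-boxes were found at Per3, Coq10b and Tef, all higher at dusk.
Per3, chr4:151044852-151044881, before the gene model: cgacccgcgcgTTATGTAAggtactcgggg
Per3, chr4:151044805-151044834, before the gene model: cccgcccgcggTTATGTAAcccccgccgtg
Coq10b, chr1:55052597-55052626, before the gene model: cgtcacgaagaTTACATAAgtggcagactc
Tef, chr15:81802488-81802517, in the untranslated part of an exon: cctttgcaaagTTAGATAAcaggccgggtt
RREs were found at Arntl and Nfil3, both higher at dawn. In the window of Nfil3 the element reads on the opposite strand, and the bases before it do not all match the study's longer form.
Arntl, chr7:113207530-113207559, in the untranslated part of an exon: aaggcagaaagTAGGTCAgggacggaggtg
Nfil3, chr13:52981033-52981062, in the untranslated part of an exon: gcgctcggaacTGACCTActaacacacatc

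The values are FPKM (fragments per kilobase of transcript, scaled to the mapped fragments of the library) of 54733 genes. The 8 libraries each held between 10899 and 11365 genes at 1 FPKM or more. Tests took in 11244 genes, those whose mean over the 24 libraries reached 1 FPKM, on the scale of log2(FPKM + 0.1). Pearson's r across these genes, which do not count as replicates, was between 0.964 and 0.9725 for the 2 libraries of a time point, had a median of 0.964 for libraries of the 2 time points on the same side, and had a median of 0.948 between dawn and dusk libraries. No 2 of the 8 libraries shared more than 0.0623% of their values. Read counts were not used here, so the depth behind a value is unknown and low values carry an unknown counting error. A difference is given throughout as the mean of log2(FPKM + 0.1) at dawn minus that at dusk, with its standard error (SE), and a gene was called at an adjusted p (Benjamini-Hochberg) under 0.05 in limma. Because of the added 0.1 FPKM, a fold change on this scale understates that of low genes. Where a mean and standard deviation (SD) of a side are given, the values are 2 libraries at each of 2 time points. Such an SD therefore also holds any change between the 2 time points.

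Of the 11244 genes, 372 (3.31%) were higher at dawn and 258 (2.29%) were higher at dusk. A further measure is whether the 4 dawn values and the 4 dusk values overlap: in 694 genes (6.17%) all dawn values lay above all dusk values, and in 620 (5.51%) all dusk values lay above all dawn values. Among the called genes this held for 319 of 372 and 212 of 258. The median fold of the called genes was 1.89 at dawn and 1.77 at dusk, and 42 and 21 of them differed by more than 4-fold. The difference was centred, with a median of -0.01 over all genes tested. The counts moved when single libraries were left out, which also leaves fewer values to estimate the spread. The dawn count was 193 without CT22 replicate 1, 200 without CT22 replicate 2, 204 and 216 without CT2 replicates 1 and 2, 209 without CT10 replicate 2 and 245 without CT14 replicate 2. It was 349 without CT6 replicate 1, which is not in the contrast. The dusk count was 114 and 135 without CT22 replicates 1 and 2, 136 and 138 without CT2 replicates 1 and 2, 147 without CT10 replicate 2, and 123 and 151 without CT14 replicates 1 and 2.

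**Figure D1:**
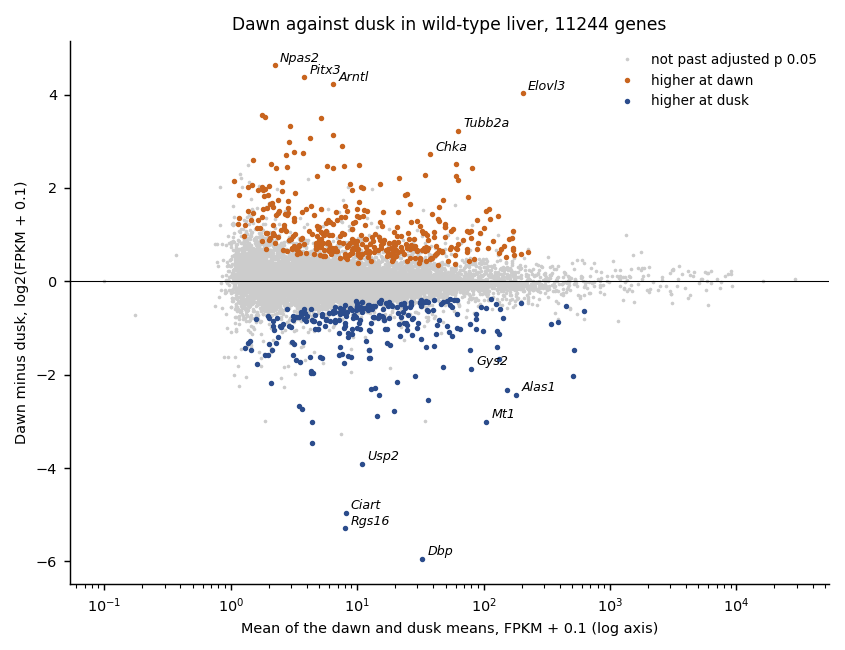
Each dot is 1 of 11244 genes, with the mean of its dawn and dusk means in FPKM + 0.1 (log axis) against the dawn minus dusk difference in log2(FPKM + 0.1). The 372 genes higher at dawn (orange) reach 4.63 at Npas2 and the 258 genes higher at dusk (blue) reach -5.95 at Dbp, while the most abundant genes lie near 0.

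The activators of the clock were all higher at dawn. Arntl (ENSMUSG00000055116, chr7:113207465-113314126), which encodes BMAL1, measured 10.3 and 11.2 FPKM at CT22, 12.6 and 13.2 at CT2, 0.195 and 0.0919 at CT10 and 2.21 and 1.15 at CT14. The dawn values lay close together and the dusk values fell into a low pair at CT10 and a higher pair at CT14. The difference was 4.22 ± 0.21 (SE, 18.7-fold, adjusted p = 7.6e-06). Npas2, the partner that can take the place of CLOCK, had 4.07 and 3.82 FPKM at CT22 and 4.68 and 3.91 at CT2, against 0.486 and 0 at CT10 and 0.0176 and 0.0222 at CT14. This was the widest difference toward dawn of all genes tested, at 4.63 ± 0.51 (SE, adjusted p = 0.00081), although a fold against values this near 0 depends on the added constant. Clock itself differed less, with a mean of 6.72 ± 1.48 FPKM at dawn and 3.03 ± 1.07 at dusk (SD, n = 4 each), and its lowest value of 5.33 at CT2 lay above its highest dusk value of 4.28. Its difference was 1.16 ± 0.18 (SE, adjusted p = 0.0045), and with CT2 set against CT14 alone it was 0.771 (adjusted p = 0.159 in limma).

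All 3 period genes were higher at dusk. Per1 measured 1.02 and 2.14 FPKM at CT22 and 0.431 and 0.492 at CT2, against 6.94 and 8.05 at CT10 and 8.09 and 7.06 at CT14 (difference -3.02 ± 0.31, SE, adjusted p = 0.00065). Per3 measured 1.02 and 1.36 at CT22 and 0.277 and 0.311 at CT2, against 10.5 and 8.23 at CT10 and 5.81 and 7.12 at CT14, a difference of -3.47 ± 0.29 (SE, 11-fold, adjusted p = 0.00016). In both genes the CT2 pair was the lowest and the groups did not overlap. Per2 was later: it stood at 4.9 and 4.59 FPKM at CT22, 1.83 and 2.63 at CT2, 6.12 and 9.59 at CT10 and 16.3 and 16 at CT14, and its mean was highest at CT18. The values of Per2 did not overlap, and its dawn minus dusk difference was -1.75 ± 0.19 (SE, adjusted p = 0.00081).

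The cryptochromes, the partners of the period proteins, parted. Cry1 was higher at dawn by 1.13 ± 0.16 (SE, adjusted p = 0.0026), but its groups overlapped. It measured 16.4 and 16.3 FPKM at CT22, 7.33 and 8.1 at CT2, 2.63 and 2.98 at CT10 and 11.7 and 7.19 at CT14. The CT14 values thus lay around the CT2 values, and with CT2 set against CT14 alone the difference was -0.248 (adjusted p = 0.649 in limma). Cry2 was higher at dusk, with a mean of 11.8 ± 1.31 FPKM against 8.01 ± 0.949 at dawn (SD, n = 4 each) and a difference of -0.56 ± 0.13 (SE, adjusted p = 0.035). The call of Cry2 was lost without CT2 replicate 2 or any of the 6 libraries of CT10, CT14 and CT22 (adjusted p up to 0.12).

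The REV-ERB genes were higher at dusk. Nr1d2, which encodes REV-ERBβ, measured 4.06 and 2.94 FPKM at CT22, 8.4 and 3.27 at CT2, 39.5 and 23.9 at CT10 and 16.9 and 19.0 at CT14, a difference of -2.43 ± 0.27 (SE, adjusted p = 0.00086) without overlap. Nr1d1, which encodes REV-ERBα, measured 1.55 and 0.898 FPKM at CT22, 20.8 and 3.89 at CT2, 42.5 and 20.1 at CT10 and 12.1 and 7.21 at CT14, and the first CT2 library lay above both CT14 libraries and 1 of the CT10 libraries. Its difference was -2.28 ± 0.50 (SE, adjusted p = 0.03), and its call was lost without CT2 replicate 2, CT10 replicate 1 or any library of CT14 or CT22 (adjusted p up to 0.1). Its mean was highest at CT6, outside the 4 time points compared. Rora, an activator at the same elements, had 7.41 ± 0.91 FPKM at dawn and 6.07 ± 1.02 at dusk (SD, n = 4 each), with an adjusted p of 0.36.

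Among the D-box factors, Dbp (chr7:45705088-45710203) had the widest difference of all genes tested. It measured 0.873 and 1.34 FPKM at CT22, 0.836 and 0.261 at CT2, 101 and 108 at CT10 and 21.2 and 29.4 at CT14. The lowest dusk value, 21.2, stood far above the highest dawn value, 1.34, and the difference was -5.95 ± 0.30 (SE, 61.6-fold, adjusted p = 7.6e-06). Tef, a second activator of D-boxes, started from a higher floor, with 14.0 and 18.2 FPKM at CT22 and 6.58 and 6.39 at CT2 against 68.1 and 71.7 at CT10 and 48.3 and 54.6 at CT14 (-2.54 ± 0.16, SE, adjusted p = 3.1e-05). Hlf, of the same family, had 7.54 ± 1.34 FPKM at dawn and 11.1 ± 3.46 at dusk (SD, n = 4 each, adjusted p = 0.18). Nfil3, the repressor that binds the same sites, was higher at dawn, with 22.8 and 16 FPKM at CT22 and 27.8 and 27.6 at CT2 against 2.91 and 3.2 at CT10 and 15.7 and 5.41 at CT14 (2.09 ± 0.29, SE, adjusted p = 0.0028). The highest dusk value of Nfil3, 15.7, fell just short of its lowest dawn value.

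The accessory repressors were also higher at dusk. Ciart, an inhibitor of the BMAL1 and CLOCK dimer, measured 0.877 and 0.737 FPKM at CT22, 0.141 and 0.193 at CT2, 13.4 and 17.7 at CT10 and 11.1 and 19.8 at CT14 (-4.95 ± 0.50, SE, adjusted p = 0.00061). Bhlhe40, which competes for E-boxes, measured 20.7 and 34.9 FPKM at CT22, 10.6 and 11.9 at CT2, 36.1 and 29.4 at CT10 and 48.4 and 89.9 at CT14, with overlap and a difference of -1.41 ± 0.21 (SE, adjusted p = 0.004). With CT22 set against CT10 alone it was -0.274 (adjusted p = 0.709). Of the 17 clock genes, 5 were higher at dawn and 10 at dusk, and Rora and Hlf were not called. Some clock genes overlap others in the annotation. Per3 shares its locus and strand with part of Camta1 (-0.04, adjusted p = 0.96), Nr1d1 meets Thra on the opposite strand (0.46, adjusted p = 0.14), Dbp meets Sphk2 (0.61, adjusted p = 0.033) and the whole of Ciart lies opposite C920021L13Rik (0.79, adjusted p = 0.51). None of these partners was higher at dusk by limma. The 8 listed clock kinases and F-box proteins, which set the stability of the clock proteins, had no called member in limma, with 1 at an unadjusted p under 0.05 and a median difference of 0.10. Over all genes tested, 2177 of 11244 (19.4%) were at an unadjusted p under 0.05.

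**Figure D2:**
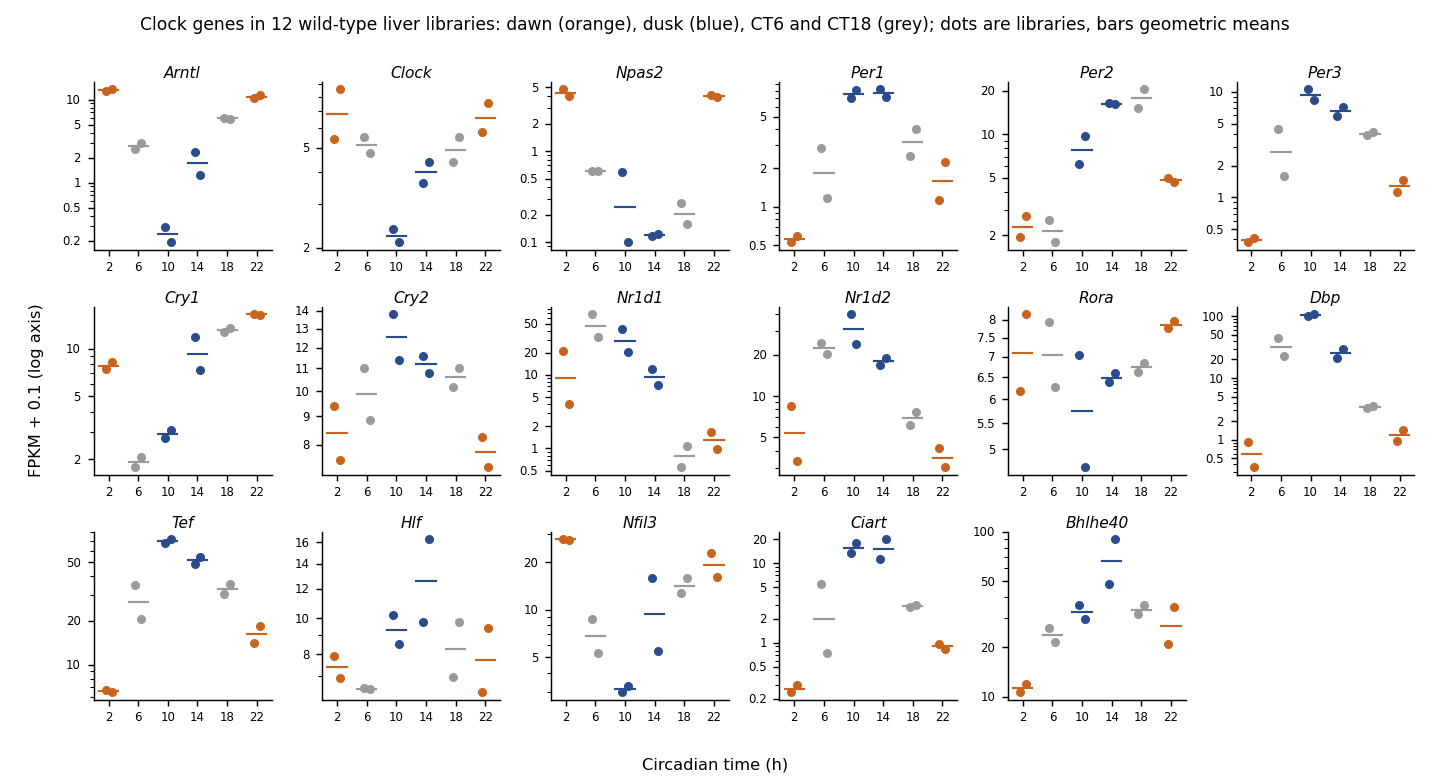
FPKM + 0.1 (log axis, each panel its own range) of the 17 clock genes against circadian time in hours in the 12 WT libraries, each dot a library and each bar the geometric mean of the 2 libraries of a time point. Arntl, Npas2 and Nfil3 are highest at CT22 and CT2 (orange), Tef, Per1, Per3 and Ciart at CT10 and CT14 (blue), Dbp at CT10, and Cry1 at CT14 reaches its CT2 level.

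Among the widest differences toward dawn outside the clock lists were those of Pitx3 and Elovl3. Elovl3 (chr19:46131897-46135694), an enzyme that lengthens saturated and monounsaturated fatty acids, measured 347 and 444 FPKM at CT22, 299 and 430 at CT2, 49.6 and 24.6 at CT10 and 10.7 and 20.9 at CT14. It was the most abundant of these genes, and its difference was 4.03 ± 0.45 (SE, 16.3-fold, adjusted p = 0.00081). Pitx3, a homeobox factor of lens and midbrain, had the same order of the 4 dawn libraries, with a mean of 7.2 ± 3.15 FPKM at dawn and 0.236 ± 0.126 at dusk (SD, n = 4 each, difference 4.37 ± 0.48, SE, adjusted p = 0.0008). Its gene model lies on the opposite strand and overlaps the end of Elovl3 by 10 bases. Whether the counting used the strand is not given in the sources used here, so the reads of the pair cannot be told apart with certainty.

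Chka, the choline kinase at the entry to phosphatidylcholine synthesis, measured 63.6 and 56.3 FPKM at CT22, 66.2 and 68.7 at CT2, 4.88 and 4.81 at CT10 and 18.5 and 19.2 at CT14 (2.72 ± 0.17, SE, adjusted p = 2.4e-05). Its replicates at each of these time points differed by far less than dawn and dusk did. CT2 and CT22 differed by only 0.17 ± 0.24 (SE, adjusted p = 0.97 in limma), and the CT18 replicates, outside this contrast, had 40.2 and 22.5 FPKM. Cdkn1a, which encodes the cell cycle inhibitor p21, had 5.2 ± 2.52 FPKM at dawn and 0.458 ± 0.318 at dusk (SD, n = 4 each, difference 3.33, adjusted p = 0.0013). The tubulin genes Tubb2a and Tubb2b moved together, from 14.1 ± 7.98 to 112 ± 12.5 FPKM and from 1.41 ± 0.792 to 11.2 ± 1.64 FPKM from dusk to dawn (SD, n = 4 each). They are near-identical copies of each other, so their separate levels are uncertain. Loxl4, a lysyl oxidase of the extracellular matrix, and Grk5, a receptor kinase, differed by 3.52 and 2.98, and Lrfn3, an adhesion gene, by 2.77.

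Clic3, an intracellular chloride channel protein, measured 10.8 and 10.7 FPKM at CT22, 6.11 and 6.84 at CT2, 0.0852 and 0.0694 at CT10 and 3.6 and 2.57 at CT14 (3.50 ± 0.27, SE, adjusted p = 0.00012). The whole of its gene model lies inside that of Paxx on the opposite strand, a gene of DNA repair, which was itself higher at dawn by 1.88 ± 0.24 (SE, adjusted p = 0.0014). The 2 genes cannot be told apart with certainty for the same reason as Elovl3 and Pitx3.

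Toward dusk, the widest differences outside the clock lists were those of Rgs16 and Usp2. Rgs16, which ends G-protein signalling, measured 0.253 and 0 FPKM at CT22, 0.436 and 0.362 at CT2, 27.8 and 21.9 at CT10 and 9.46 and 3.4 at CT14 (-5.29 ± 0.73, SE, adjusted p = 0.0026). Usp2, a deubiquitinase that acts on clock proteins, measured 2.64 and 5.16 at CT22, 0.206 and 0.555 at CT2, 19.6 and 20.0 at CT10 and 17.9 and 20.2 at CT14 (-3.90 ± 0.38, SE, adjusted p = 0.00051). Its dusk values were nearly level and its dawn values were lowest at CT2, as in Per1, Per3 and Ciart. Wee1, the kinase that holds cells before mitosis, had 0.843 ± 0.155 FPKM at dawn and 5.96 ± 1.38 at dusk (SD, n = 4 each, -2.67). Upp2, a uridine phosphorylase, had 50.1 ± 12.3 against 254 ± 73.0 FPKM (SD, n = 4 each, -2.32). Pcsk4, a proprotein convertase, and Coq10b, which binds coenzyme Q, differed by -2.31 and -2.15.

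The metabolic genes were read through lists of genes for liver functions. Of 31 lists outside the core clock, 9 held called genes in both directions and 10 held no called gene in limma. Their medians lay between -0.47 and 0.53 on the log2 scale, against -0.01 over all genes. These counts are to be read against the 5.60% of all genes (630 of 11244) called in either direction and the 19.4% at an unadjusted p under 0.05.

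**Figure D3:**
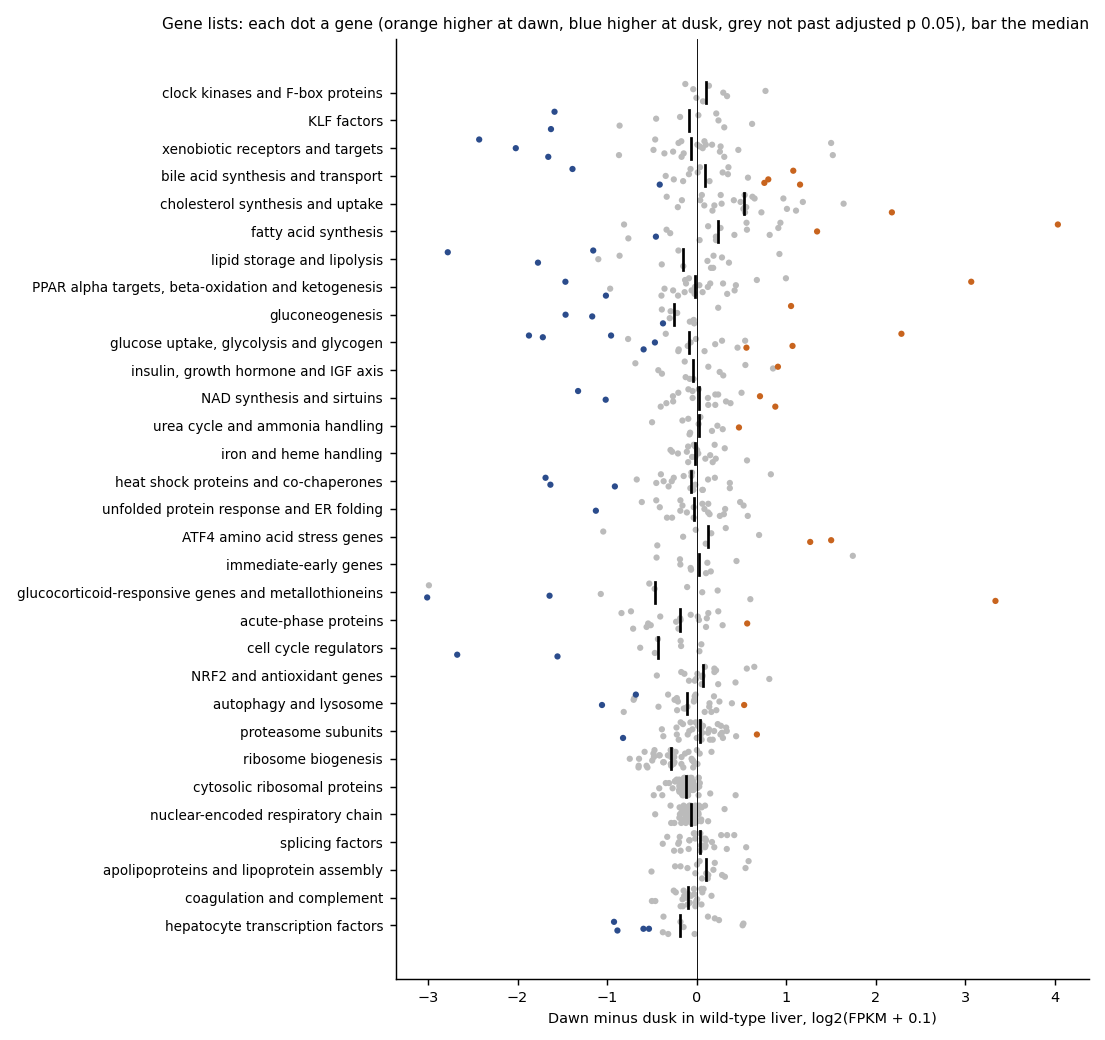
Dawn minus dusk difference in WT liver, log2(FPKM + 0.1), of the tested genes of 31 lists, each dot a gene (orange higher at dawn, blue higher at dusk, grey not called) and each bar the median of the list. Single genes such as Elovl3 at 4.03, Pdk4 at 3.06 and Lpin1 at -2.78 lie far from the medians of their lists, while 36 of 40 ribosome biogenesis genes lie below 0 without a call.

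In lipid metabolism, synthesis and breakdown did not divide cleanly between the sides. Lpin1, a phosphatidate phosphatase and coactivator of fatty acid oxidation, measured 4.85 and 4.83 FPKM at CT22, 3.69 and 5.05 at CT2, 18.3 and 30.4 at CT10 and 37.4 and 49.99 at CT14. Its dawn values were flat and its dusk values were spread, and the difference was -2.78 ± 0.23 (SE, adjusted p = 0.00015). Pnpla2, which encodes the triglyceride lipase ATGL, had 16.7 ± 4.24 FPKM at dawn and 37.0 ± 6.16 at dusk (SD, n = 4 each, -1.15 ± 0.17, SE, adjusted p = 0.0036). Cpt1a, which admits fatty acids into mitochondria, had 42.5 ± 3.5 against 86.4 ± 12.7 FPKM (SD, n = 4 each, -1.01 ± 0.11, SE, adjusted p = 0.00075). Angptl4, a secreted inhibitor of lipoprotein lipase, had 6.41 ± 1.51 against 18.1 ± 5.51 FPKM (SD, n = 4 each, -1.47), and its call was lost without the filter (adjusted p = 0.077). Of 15 tested genes of lipid storage and lipolysis, 3 were higher at dusk (Lpin1, Pnpla2 and Cidec) and 0 higher at dawn in limma, with 8 of the 15 at an unadjusted p under 0.05. The call of the lipid droplet gene Cidec, at 0.65 against 2.4 FPKM, was lost without any 1 of 8 libraries (both of CT2, CT10 and CT18, CT14 replicate 2 and CT22 replicate 2, adjusted p up to 0.12).

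Pdk4, the kinase that turns off pyruvate dehydrogenase, went the other way from Cpt1a and Angptl4, although all belong to the 25 tested PPARα targets and oxidation genes. It measured 6.91 and 3.46 FPKM at CT22, 8.44 and 10.2 at CT2, 0.455 and 0.242 at CT10 and 2.12 and 0.966 at CT14 (3.06 ± 0.44, SE, adjusted p = 0.0033). The other 22 genes of that list were not called and its median was -0.02. In fatty acid synthesis, 2 of 18 tested genes were higher at dawn and 1 at dusk, and the median was 0.24. Beside Elovl3, Elovl5, which lengthens polyunsaturated fatty acids, was higher at dawn, with 97.2 and 112 FPKM at CT22, 222 and 209 at CT2, 115 and 51.3 at CT10 and 58.1 and 35.7 at CT14 (1.34 ± 0.24, SE, adjusted p = 0.0098). Its first CT10 value lay just above both CT22 values, and its call was lost without the filter (adjusted p = 0.0808) and with the 8 libraries as 2 groups (adjusted p = 0.084). Dgat2, which makes triglycerides, had 168 ± 14.0 FPKM at dawn and 230 ± 12.4 at dusk (SD, n = 4 each, -0.46, adjusted p = 0.028). The call of Dgat2 was lost without CT2 replicate 2 or any library of CT10, CT14 or CT22 (adjusted p up to 0.12). Fasn, the fatty acid synthase, differed by 0.22 (adjusted p = 0.77).

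Of 26 tested cholesterol genes, 1 was called, at dawn, and 4 were at an unadjusted p under 0.05. Insig2, which retains the sterol sensor in the endoplasmic reticulum, measured 104 and 86.3 FPKM at CT22, 118 and 99.1 at CT2, 34.7 and 16.4 at CT10 and 19.5 and 22.3 at CT14, a difference of 2.18 ± 0.25 (SE, adjusted p = 0.00096) without overlap. It opposes the pathway whose other 25 tested genes were not called. Of the 26 genes, 23 had a positive difference, against 48.7% of all genes, and the median was 0.53. Hmgcs1, an early enzyme of the pathway, stood at 1.64 (adjusted p = 0.15).

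Of 18 tested bile acid genes, 4 were higher at dawn and 2 at dusk. Abcb11, the pump that exports bile salts into the canaliculus, measured 138 and 123 FPKM at CT22, 143 and 150 at CT2, 99.9 and 55.0 at CT10 and 48.5 and 55.1 at CT14 (1.15 ± 0.17, SE, adjusted p = 0.0032). Hsd3b7, an enzyme of bile acid synthesis, had 230 ± 31.7 FPKM at dawn and 114 ± 41.4 at dusk (SD, n = 4 each, 1.08 ± 0.14, SE, adjusted p = 0.0014). Its dusk values were 158 and 139 FPKM at CT10 and 68.5 and 90.8 at CT14. With CT22 set against CT10 alone, the difference of Hsd3b7 was 0.492 (adjusted p = 0.23 in limma). Cyp7a1, the rate-limiting enzyme of the classic pathway, was higher at dusk, with 25.1 and 28.6 FPKM at CT22, 21.1 and 12.3 at CT2, 68.8 and 81.5 at CT10 and 27.3 and 57.4 at CT14 (-1.39 ± 0.30, SE, adjusted p = 0.027). One of its CT14 values lay among the dawn values, and its call was lost without CT2 replicate 2, CT14 replicate 2 or any library of CT10 or CT22 (adjusted p up to 0.094). Cyp8b1, which sets the ratio of cholic acid, had a call at dawn (0.76, adjusted p = 0.022) that rested on CT14: it measured 179 and 151 FPKM at CT10, within its dawn range of 130 to 214, and 55.3 and 70.7 at CT14. That call was lost without CT2 replicate 1, CT10 replicate 2, CT14 replicate 1 or either CT22 library (adjusted p up to 0.084). Acox2 at dawn and Nr1h4, the bile acid receptor FXR, at dusk differed by 0.80 and -0.41, and both lost their calls without any 1 of the 12 WT libraries, except that Acox2 kept its call without CT14 replicate 2 (adjusted p up to 0.14 and 0.16).

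In glucose metabolism, the genes of glycogen were split. Gys2, the liver glycogen synthase, measured 35.4 and 34.8 FPKM at CT22, 34.2 and 30.7 at CT2, 118 and 131 at CT10 and 141 and 107 at CT14. The groups were far apart beside the small spread within each, and the difference was -1.87 ± 0.11 (SE, 3.66-fold, adjusted p = 2.4e-05). Ppp1r3c, a subunit that targets the activating phosphatase to glycogen, was higher at dawn, with 55.5 and 68.1 FPKM at CT22 and 44.0 and 56.2 at CT2 against 13.3 and 5.59 at CT10 and 13 and 16.6 at CT14 (2.28 ± 0.24, SE, adjusted p = 0.00065). Its relative Ppp1r3b had 89.0 and 118 at CT22, 49.0 and 100 at CT2, 11.2 and 17.2 at CT10 and 85.8 and 160 at CT14. The CT14 values of Ppp1r3b overlapped its dawn values, its difference was 1.07 (adjusted p = 0.041), and the call was lost without any 1 of 10 of the 12 WT libraries (all but CT2 replicate 1 and CT14 replicate 2, adjusted p up to 0.13). Slc2a2, which encodes the glucose transporter GLUT2, had 34.8 ± 4.22 FPKM at dawn and 67.6 ± 8.71 at dusk (SD, n = 4 each, -0.96 ± 0.13, SE, adjusted p = 0.0028). Of the 20 tested genes of this list, 3 were higher at dawn and 5 at dusk, with a median of -0.08. Gckr, which holds glucokinase in the nucleus, was the third at dawn (0.56, adjusted p = 0.044), and Ugp2, which makes UDP-glucose, and Pfkfb3, which makes an activator of glycolysis, were higher at dusk (-0.59, adjusted p = 0.022, and -1.72, adjusted p = 0.04). The call of Gckr was lost without any WT library other than CT2 replicate 2 and CT14 replicate 1 (adjusted p up to 0.15). The call of Pfkfb3 was lost without CT22 replicate 1 or any library of CT2, CT10 or CT14 (adjusted p up to 0.14), and that of Ugp2 without CT10 replicate 1, CT14 replicate 1 or any library of CT2 or CT22 (adjusted p up to 0.085).

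Of the 12 gluconeogenesis genes, 3 were higher at dusk and 1 at dawn, and 10 had a negative difference. Slc37a4, which carries glucose 6-phosphate into the endoplasmic reticulum, measured 34.9 ± 6.27 FPKM at dawn and 78.3 ± 11.7 at dusk (SD, n = 4 each, -1.17 ± 0.14, SE, adjusted p = 0.0013). G6pc, the phosphatase that acts on the same substrate, was called in the opposite direction, with 146 and 87.8 FPKM at CT22, 109 and 62.4 at CT2, 27.8 and 33.2 at CT10 and 94.0 and 53.7 at CT14. Its groups overlapped, its difference was 1.05 ± 0.23 (SE, adjusted p = 0.03), and the call was lost without CT2 replicate 1, CT14 replicate 2, CT22 replicate 1 or either CT10 library (adjusted p up to 0.11). Pck1, the first committed enzyme of the pathway, had 286 ± 118 FPKM at dawn and 747 ± 179 at dusk (SD, n = 4 each, -1.46 ± 0.36, SE, adjusted p = 0.043) without overlap. Creb3l3, a factor of the fasting response, differed by -0.38 (adjusted p = 0.035), and the calls of both were lost without any 1 of the 8 libraries compared (adjusted p up to 0.14 and 0.12).

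In the list of xenobiotic (foreign compound) receptors and their targets, which includes Alas1, the calls were at dusk. Alas1, the rate-limiting enzyme of heme synthesis, measured 49.4 and 134 FPKM at CT22, 26.2 and 44.5 at CT2, 178 and 395 at CT10 and 268 and 347 at CT14 (-2.43 ± 0.33, SE, adjusted p = 0.0026). Por, the reductase that supplies electrons to cytochromes P450, measured 77.8 and 65.9 at CT22, 72.1 and 41.0 at CT2, 157 and 174 at CT10 and 203 and 271 at CT14 (-1.66 ± 0.25, SE, adjusted p = 0.004). Cyp2a5, which oxidizes coumarin and nicotine, had 206 ± 69.4 FPKM at dawn and 809 ± 217 at dusk (SD, n = 4 each, -2.02, adjusted p = 0.011, and 0.0965 without the filter). It belongs to a gene family of near-identical members, so its level is uncertain. These were the 3 called genes among 24 tested members, which included 0 called at dawn in limma, with 5 of the 24 at an unadjusted p under 0.05 and a median of -0.07.

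In the synthesis of NAD, 2 of 21 tested genes were higher at dusk and 2 at dawn. Nampt, the rate-limiting enzyme of the salvage pathway, measured 10.6 and 11.3 FPKM at CT22, 7.87 and 8.14 at CT2, 14.7 and 23.2 at CT10 and 34.0 and 26.6 at CT14 (-1.32 ± 0.15, SE, adjusted p = 0.00096). Nmrk1, which phosphorylates nicotinamide riboside, had 11.3 ± 1.62 against 23.0 ± 4.64 FPKM (SD, n = 4 each, -1.02, adjusted p = 0.008, and 0.0545 without the filter). Kynu, of the synthesis from tryptophan, was higher at dawn with 74.5 ± 1.66 against 45.9 ± 5.76 FPKM (SD, n = 4 each, 0.71 ± 0.11, SE, adjusted p = 0.0051). Acmsd, which draws off an intermediate of that route, had a call at dawn of 0.88 (adjusted p = 0.021) that was lost without CT2 replicate 1, CT10 replicate 2, CT14 replicate 1 or CT22 replicate 2 (adjusted p up to 0.083).

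**Figure D4:**
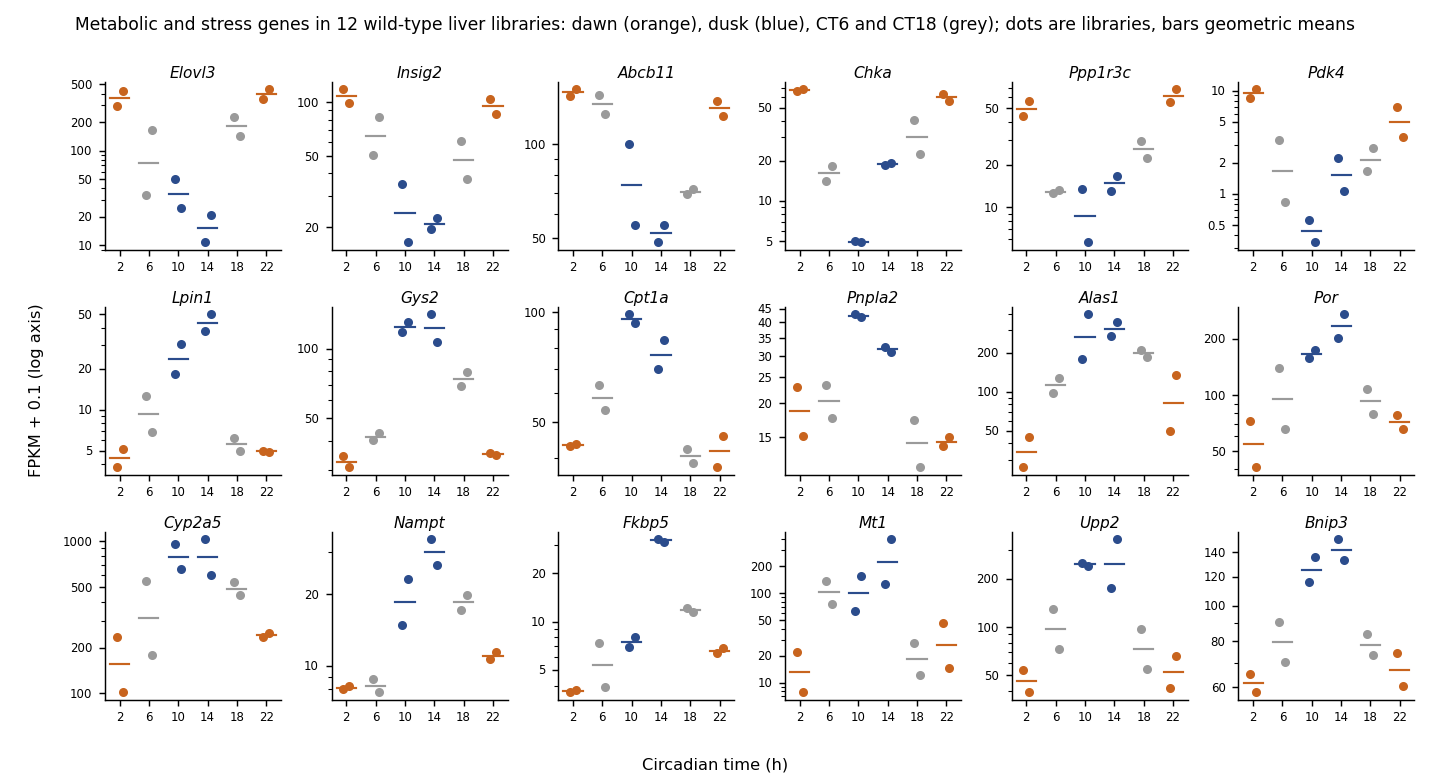
FPKM + 0.1 (log axis, each panel its own range) of 18 metabolic and stress genes against circadian time in hours in the 12 WT libraries, each dot a library and each bar the geometric mean of the 2 libraries of a time point. The dawn (orange) and dusk (blue) values of each of the 18 genes do not overlap, and Fkbp5 stands apart with 32.4 and 31.3 FPKM at CT14 alone.

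Among genes that respond to hormones and stress, Fkbp5, a chaperone partner of the glucocorticoid receptor and its target, measured 6.27 and 6.73 FPKM at CT22, 3.54 and 3.67 at CT2, 6.81 and 7.95 at CT10 and 32.4 and 31.3 at CT14 (-1.64 ± 0.18, SE, adjusted p = 0.00078). The side of dusk was thus set by CT14, since the CT10 values were only just above those of CT22 and CT22 against CT10 alone gave -0.177 (adjusted p = 0.787). Mt1, a metallothionein that binds zinc, measured 46.7 and 14.4 FPKM at CT22, 21.9 and 7.72 at CT2, 63.2 and 155 at CT10 and 125 and 400 at CT14, with replicates that differed about as much as the time points of a side (-3.01 ± 0.54, SE, adjusted p = 0.011, and 0.0969 without the filter). Tsc22d3, another glucocorticoid target, differed by -0.11 (adjusted p = 0.83), and the list of 11 tested genes had 2 called at dusk, 1 at dawn (Cdkn1a) and a median of -0.47.

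The inducible heat shock genes Hspa1a and Hspa1b were called at dusk (-1.69 and -1.63, adjusted p = 0.028 and 0.038), and their highest values were at CT14. Hspa1b measured 3.07 and 1.96 FPKM at CT22, 3.41 and 7.51 at CT2, 2.24 and 4.48 at CT10 and 44.3 and 33.9 at CT14. The CT10 values lay within the dawn range, and the CT18 values of 9.25 and 23.6 lay between those and CT14. The pair are near-identical copies, so their separate levels are uncertain, and their calls were lost without CT2 replicate 1, CT10 replicate 2, either CT14 library or CT22 replicate 2, and that of Hspa1b also without CT22 replicate 1 (adjusted p up to 0.095 and 0.12). The constitutive Hspa8 was the third (-0.91, adjusted p = 0.04), and its call was lost without CT2 replicate 1, CT14 replicate 1 or any library of CT10 or CT22 (adjusted p up to 0.13). Of the 24 tested heat shock genes and co-chaperones, 3 were called at dusk and 0 at dawn in limma, with 9 of the 24 at an unadjusted p under 0.05 and a median of -0.06.

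Other single genes of the lists passed the test. Bnip3, a receptor for the removal of mitochondria, had 64.5 ± 7.14 FPKM at dawn and 134 ± 14.8 at dusk (SD, n = 4 each, -1.06 ± 0.12, SE, adjusted p = 0.001). Atf5, a factor of the mitochondrial stress response, had 153 ± 30.6 against 56.6 ± 24.2 (SD, n = 4 each, 1.5 ± 0.20, SE, adjusted p = 0.0018). Psmd11, a subunit of the proteasome lid, had 40.1 ± 1.49 against 25.2 ± 1.61 FPKM (SD, n = 4 each, 0.67 ± 0.09, SE, adjusted p = 0.002), the called gene of the 38 proteasome genes at dawn, and Psmb10, of the immunoproteasome, was the one at dusk (-0.82, adjusted p = 0.015). The call of Psmb10 was lost without CT2 replicate 2, CT10 replicate 2, CT14 replicate 1 or either CT22 library (adjusted p up to 0.06). Crp, which encodes C-reactive protein, had 208 ± 17.3 against 141 ± 10.5 FPKM (SD, n = 4 each, 0.56, adjusted p = 0.0061) and was the 1 called of 20 acute-phase genes. Stat5b, which relays growth hormone, had 14.9 ± 1.42 against 7.92 ± 1.27 FPKM (SD, n = 4 each, 0.91, adjusted p = 0.0034). The transcription factors Klf13 and Cebpb were higher at dusk, with differences of -1.59 and -0.92 (adjusted p = 0.0038 and 0.0078), and that of Cebpb had an adjusted p of 0.0532 without the filter.

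Further calls in the lists were lost in limma when 1 library was left out. Leaving out a library also leaves fewer values to estimate the spread. Without CT18 replicate 1, which is not in the contrast, Foxa3 kept its difference of -0.88 but had an adjusted p of 0.053. A lost call therefore does not show that the difference came from that library. Klf10, a factor of the same family as Klf13, was called at dusk (-1.63, adjusted p = 0.016) but not without CT2 replicate 2, CT14 replicate 2 or CT22 replicate 1 (adjusted p up to 0.069). The nuclear receptor Esrra (-0.59, adjusted p = 0.016) lost its call at dusk without CT2 replicate 2, CT10 replicate 2, CT14 replicate 1 or either CT22 library (adjusted p up to 0.061). For Foxa3, a forkhead factor of hepatocytes (-0.88, adjusted p = 0.036), this held for CT10 replicate 2 and every library of CT2, CT14, CT18 and CT22 (adjusted p up to 0.13). For Prox1, a homeobox factor (-0.53, adjusted p = 0.043), it held for CT10 replicate 1 and every library of CT2, CT14 and CT22 (adjusted p up to 0.14). These 4 come from lists of which 2 of 10 tested KLF factors and 4 of 15 tested hepatocyte transcription factors were called, all at dusk. Over all genes 5.60% were called in either direction. Other factors of transcription, such as Nfil3, Atf5 and Stat5b, were called at dawn, so the side is not one of such factors in general.

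Ccnd1, which encodes cyclin D1 (-1.55, adjusted p = 0.043), lost its call at dusk without CT14 replicate 1 or any library of CT2, CT10, CT18 or CT22 (adjusted p up to 0.14). Wipi1, of autophagosome formation (-0.68, adjusted p = 0.047), lost it without any WT library other than those of CT18 (adjusted p up to 0.15), and Herpud1, of the unfolded protein response (-1.13, adjusted p = 0.04), without CT2 replicate 1, CT22 replicate 2 or any library of CT10 or CT14 (adjusted p up to 0.13). On the side of dawn, Ddit4, an inhibitor of mTORC1 (1.27, adjusted p = 0.017), lost its call without CT2 replicate 2, CT14 replicate 1 or either CT22 library (adjusted p up to 0.066). Slc25a15, the mitochondrial ornithine carrier (0.47, adjusted p = 0.039), lost it without CT14 replicate 1 or any library of CT2, CT10 or CT22 (adjusted p up to 0.13), and Sqstm1, the autophagy receptor p62 (0.53, adjusted p = 0.049), without any WT library other than CT10 replicate 1 (adjusted p up to 0.17). In every one of these 10 genes, the call was lost without at least 1 of the CT22 libraries. This is not particular to them, since it held for all 36 named genes that lost a call without a library. Over all genes, the counts without CT22 replicate 1 fell from 372 to 193 at dawn and from 258 to 114 at dusk.

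Several large lists had 0 called genes in limma. Of 40 tested ribosome biogenesis genes, 36 had a negative difference, 11 were at an unadjusted p under 0.05, and the median was -0.29. The lowest was Gnl3, a nucleolar GTPase, at -0.75 (adjusted p = 0.065). Of 79 cytosolic ribosomal protein genes, 71 were negative with a median of -0.12 and 6 at an unadjusted p under 0.05, and of 75 respiratory chain genes, 64 were negative with a median of -0.07 and 2 at an unadjusted p under 0.05. Over all genes tested, 48.7% were positive. With the libraries rescaled by the median of ratios, 4, 8 and 13 of the genes of the 3 lists were positive. The size factors averaged 0.998 at dawn and 1 at dusk, so this rescaling could change little and nothing is read from it. In ΔRRE livers the medians of the 3 lists were -0.19, -0.06 and -0.0. The 19 iron and heme genes, 29 splicing factors, 17 apolipoprotein genes and 19 antioxidant genes also held 0 calls, with 3, 6, 3 and 4 at an unadjusted p under 0.05 and medians of -0.01, 0.04, 0.11 and 0.07. In the 10 tested immediate-early genes and the 27 of coagulation and complement there were also 0 calls in limma, with 1 and 2 at an unadjusted p under 0.05 and medians of 0.02 and -0.09. Of the 2 cold-inducible RNA-binding protein genes tested, 0 were called in limma and 1 was at an unadjusted p under 0.05.

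The tissue matched its label. The 7 hepatocyte markers summed to between 47200 and 48400 FPKM at dawn and between 37200 and 53400 at dusk, and 0 of them were called in limma, with 1 at an unadjusted p under 0.05. The 8 markers of hepatocytes near the central vein summed to between 3310 and 4100 FPKM at dawn and between 4270 and 5220 at dusk, without overlap. The 7 periportal markers summed to between 2800 and 3560 FPKM at dawn and between 2230 and 3200 at dusk. In both lists 0 genes were called in limma, with 2 and 1 at an unadjusted p under 0.05. Markers of other cells were listed for comparison. The 8 endothelial markers summed to between 32.8 and 62.4 FPKM at dawn and between 28.3 and 40.6 at dusk, and 1 of the 8, Eng, was called at dawn (0.60, adjusted p = 0.022). The stellate cell markers summed to between 80.7 and 122 FPKM at dawn and between 49.8 and 80.7 at dusk with 0 of 6 tested genes called in limma and 3 at an unadjusted p under 0.05. The lymphocyte markers summed to between 39.8 and 83.0 FPKM at dawn and between 16 and 48.2 at dusk, and the erythroid markers to between 775 and 1540 and between 466 and 1390. The 8 Kupffer cell markers summed to between 14.6 and 81.4 FPKM at dawn and between 22.2 and 62.3 at dusk. Of the cholangiocyte markers 3 of 6 were tested and 1, Sox9, was called at dawn (1.02, adjusted p = 0.04). The calls of Eng and Sox9 were each lost without CT2 replicate 2, either CT14 library, either CT22 library or CT10 replicate 2, and that of Eng also without CT2 replicate 1. Pancreas markers summed to between 16 and 35.0 FPKM over the 8 libraries with 3 of 6 at 0 in all of them, and the part of any of these cells in the differences was not tested.

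The sides were tested for differences within themselves. At dawn, CT2 and CT22 differed in 2 genes (0.0178%), both lower at CT2: the small nucleolar RNA Snord14c (2.04 and 4.85 FPKM at CT22, 0.0109 and 0.0106 at CT2, adjusted p = 0.022) and the predicted gene Gm15536 (1.5 and 2.19 against 0.141 and 0.0915, adjusted p = 0.042). Snord14c lies inside the span of Hspa8 on the same strand, so its reads cannot be told apart from those of that gene. The count was 0 without either library of CT14 or CT18, 1 without either CT2 library or CT22 replicate 2, and 4 without either CT6 library. Of all genes, 592 were at an unadjusted p under 0.05 in this contrast.

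At dusk, CT14 and CT10 differed in 56 genes (0.498%), of which 39 were higher (0.347%) and 17 lower at CT14 (0.151%). Among them were genes that had risen from their trough, such as Arntl (2.84, adjusted p = 0.0044), Cry1 (1.68, adjusted p = 0.0078), Chka (1.94, adjusted p = 0.0056) and Clic3 (4.15, adjusted p = 0.0022). Fkbp5 (2.1, adjusted p = 0.0056), Ppp1r3b (3.07, adjusted p = 0.0056), Hspa1a (3.56, adjusted p = 0.016) and Hspa1b (3.57, adjusted p = 0.02) were also higher at CT14. The histone gene Hist2h3c1 and the microRNA entry Mir5133 differed by 4.03 and 3.95, and the latter lies inside Glce on the same strand. Clec2h, a lectin-like receptor, went the other way, with 18.3 and 17.1 FPKM at CT10 and 1.54 and 3.08 at CT14 (-2.96, adjusted p = 0.0056), as did Cyp8b1 (-1.39, adjusted p = 0.029). The predicted Gm15611 was at 0 in both CT14 libraries and at 4.42 and 1.97 FPKM at CT10, and the lincRNA CT025731.4 differed by -1.96. The count was 14 without CT10 replicate 1, 17 without CT14 replicate 1, and from 35 to 37 without CT14 replicate 2 or any library of CT18 or CT22.

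The CT6 and CT18 libraries, which were not used to place a gene at dawn or dusk, lay between the sides for most called genes. Since genes were called for a wide gap between the dawn and dusk means, another mean falls within that gap more often by that choice alone, and nothing is read from the comparison with all genes. The mean at CT6 was between the dawn and dusk means in 303 of the 372 dawn genes (81.5%) and 200 of the 258 dusk genes (77.5%), and the mean at CT18 in 304 (81.7%) and 188 (72.9%), against 33.2% of all genes at either time. Of the 372 dawn genes, 199 had their highest time point mean at CT2, 116 at CT22, 29 at CT18 and 26 at CT6. Of the 258 dusk genes, 126 were highest at CT10 and 124 at CT14. CT18 exceeded CT6 in 163 of the dawn genes (43.8%) and 135 of the dusk genes (52.3%), against 43.1% of all genes. The contrast of CT18 with CT6 called 75 genes (0.667%), 36 of them higher (0.320%) and 39 lower (0.347%) at CT18, a count that fell to 38 and 28 without CT6 replicates 1 and 2 and to 23 and 6 without CT18 replicates 1 and 2. Of the dawn genes 5 were higher and 5 lower at CT18, and of the dusk genes 8 and 5. Per2 and Cry1 were among those higher at CT18 (3.05, adjusted p = 0.002, and 2.77, adjusted p = 0.00094), and Nr1d1 and Dbp among those lower (-5.91, adjusted p = 0.01, and -3.22, adjusted p = 0.015).

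The same contrast was then read in the ΔRRE livers, which share no library with the WT fit. There 458 genes (4.07%) were called, 294 at dawn (2.61%) and 164 at dusk (1.46%), and 176 of the 372 WT dawn genes and 96 of the 258 WT dusk genes were called in the same direction, with 0 in the other direction. Whether or not called, the sign was the same in 367 of 372 (98.7%) and 252 of 258 (97.7%), against 71.1% of all genes. The median difference of the dawn genes was 0.92 in WT and 0.70 in ΔRRE, and that of the dusk genes -0.82 and -0.59. These medians are larger in WT by choice of the genes, which were called there. Among clock genes, Npas2 (5.08), Nfil3 (2.17), Per1 (-2.86), Per3 (-3.48), Dbp (-5.31), Tef (-2.29) and Ciart (-5.63) kept differences close to those of WT, and the difference between the genotypes had an adjusted p of 1.0 for each in limma. The ΔRRE count also moved with single libraries. It was 209 without ΔRRE CT22 replicate 2, 304 and 264 without ΔRRE CT2 replicates 1 and 2, 296 without CT10 replicate 1, 295 without CT14 replicate 1 and 606 without CT14 replicate 2.

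Arntl was the exception among the clock genes. Its mean was 3.46 FPKM at dawn and 2.42 at dusk in ΔRRE livers, a difference of 0.50 ± 0.16 (SE, adjusted p = 0.11), and the difference between the genotypes was 3.72 ± 0.27 (SE, adjusted p = 2.3e-06). The test of the genotype difference passed in 2 other genes, Gm21981 (2.92, adjusted p = 1.6e-05) and Golt1a (1.52, adjusted p = 0.045). Together these are 0.0267% of the genes. Rgs16 (-5.29 in WT and -1.88 in ΔRRE), Clic3 (3.50 and 1.64) and Angptl4 (-1.47 and -0.05) had unlike values in the 2 genotypes, but for each the adjusted p of the difference was 1.0 in limma. A p of this size does not show that the genotypes were alike.

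**Figure D5:**
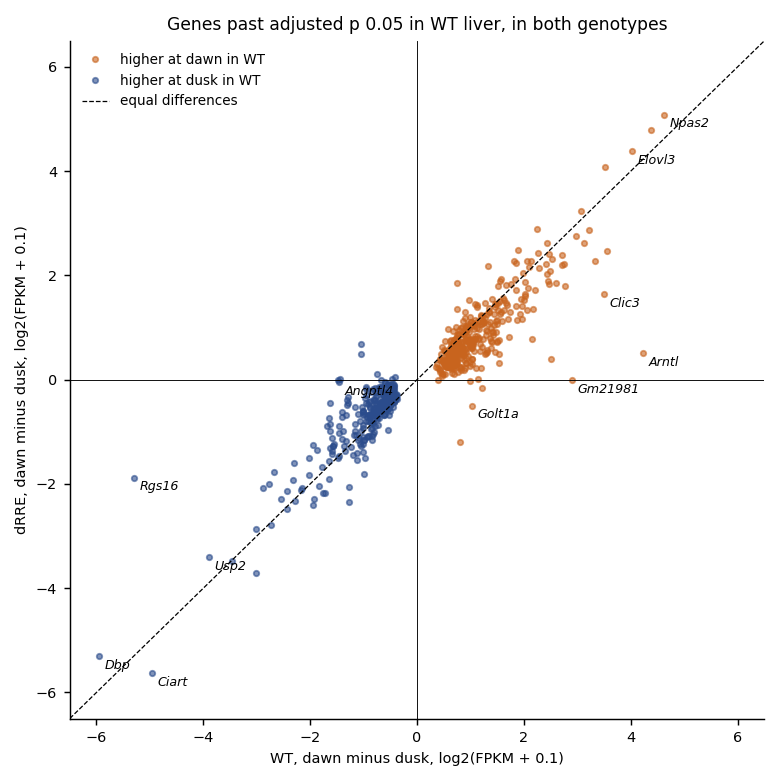
Dawn minus dusk difference, log2(FPKM + 0.1), in WT (horizontal) and ΔRRE liver (vertical) of the 630 genes called in WT, each dot a gene, with a dashed line of equal differences. Most dots lie along the line, while Arntl (4.22 and 0.50), Gm21981 (2.91 and -0.01) and Golt1a (1.02 and -0.50) lie below it.

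The other 2 genes lie over others on the same strand, and their low values were found in the WT CT14 libraries alone. Gm21981 (chr17:47686739-47694455), a predicted coding gene, had 0.133 and 0.121 FPKM at WT CT14 and between 6.24 and 18.5 in the other 22 libraries of both genotypes. Tomm6, a subunit of the mitochondrial import pore that shares part of its locus and strand, had 54.9 and 45.1 FPKM at WT CT14 and between 10.4 and 21.4 in the other WT libraries. In ΔRRE livers Tomm6 lay between 8.8 and 30.6 FPKM, highest in CT22 replicate 2, where Gm21981 had 6.24. Tomm6 was higher at dusk (-1.04 ± 0.20, SE, adjusted p = 0.015), although its second CT10 value of 15.8 lay within the dawn values and the first, 21.4, just above them. The reads of Gm21981 and Tomm6 cannot be told apart where the models overlap, and their sum was 55.0 and 45.2 FPKM at CT14 against 21.3 to 29.8 in the other WT libraries.

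Golt1a (chr1:133309800-133323026), a gene of vesicle transport, had 1.35 and 0.846 FPKM at WT CT14 and between 3.54 and 8.79 in the other 22 libraries. Gm28040, a gene model over the same locus and strand, had 5.73 and 5.13 FPKM at WT CT14 and at most 0.446 in the other WT libraries except CT2 replicate 1, where it had 4.04. In ΔRRE livers Gm28040 reached 3.02 FPKM in CT22 replicate 1, 3.0 in CT18 replicate 1 and 1.45 in CT10 replicate 1. The dawn call of Golt1a (1.02, adjusted p = 0.014) was lost without CT22 replicate 2 (adjusted p = 0.053). The sum of Golt1a and Gm28040 lay between 5.03 and 7.58 FPKM in all 12 WT libraries, with 7.08 and 5.97 at CT14. The test of the genotype difference of Golt1a (adjusted p = 0.045) held without WT CT2 replicate 1, WT CT14 replicate 1 or ΔRRE CT14 replicate 2 and was lost without any other single library of the 24 (adjusted p up to 0.198). It was also lost with the replicate block (adjusted p = 0.0776) and with 1 FPKM added (adjusted p = 0.0797). The number of genes past that test was 5 without WT CT2 replicate 1 or ΔRRE CT14 replicate 2.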

How the data were processed

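Liver RNA of 24 mouse libraries was sequenced as poly(A) RNA with a directional paired-end kit. The authors deposited gene values as FPKM for each library, and the submitters' processing notes name Trimmomatic 0.39, HISAT2 2.1.0, StringTie 1.3.5 and the build mm10, without their roles. Read counts were not used here, the depth is unknown, and the strand setting of the counting is not given in the sources used here. Groups came from the sample titles. Genes with a mean of 1 FPKM or more (11244 of 54733) were tested on log2(FPKM + 0.1) by limma 3.58.1 in R 4.3.3 (trend in the prior, two-sided, Benjamini-Hochberg adjustment over all genes tested), with the time point as a factor over the 12 WT libraries. The 12 ΔRRE libraries were fitted in the same way, and the difference between the genotypes over all 24. The procedure was tested on simulated data. Tables and figures were made with Python 3.11.15, pandas 2.3.3, numpy 2.4.6 and matplotlib 3.10.9.

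Named genes were all core clock genes, the 15 widest differences per direction among called genes whose groups did not overlap (predicted genes and clone names left out, and some genes not reported here), up to 4 called members per direction of every other list, and up to 5 called genes per direction of the contrasts within dawn, within dusk and between genotypes. The contrast, its members and the lists were chosen with earlier results of these data known. Other genes given with values (Fasn, Hmgcs1, Tsc22d3, Gnl3, Per2 and others at CT18, and genes overlapping named ones) were picked after their values were seen. Alternatives changed the constant added, the filter, the scaling, the samples, the time points, the block, the prior and the threshold.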

Additional observations from a re-analysis of the deposited data

Results flagged for a closer look

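In 12 of 206 groups of 4 libraries, 1 library lay so far from the nearest other that the gap, as a share of the group's range, exceeded Dixon's critical value for 4 values. Chance alone gives this in about 1 in 20 groups.

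At dawn, CT2 replicate 1 stood apart in 5 genes. It was high for Tubb2b (13.6 FPKM, the others 10.3 to 10.4) and for Psmb10 (15.6, the others 10.3 to 10.7). It was low for Lpin1 (3.69 FPKM, the others 4.83 to 5.05), Ddit4 (5.15, the others 8.43 to 8.95) and Golt1a (3.54, the others 5.68 to 6.15). Cyp2a5 was low in CT2 replicate 2 (102 FPKM, the others 236 to 249) and Nr1h4 was low in CT22 replicate 2 (38.2 FPKM, the others 45.0 to 46.3).

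At dusk, Npas2 had 0.486 FPKM in CT10 replicate 1 and at most 0.0222 in the others. CT10 replicate 2 was high for Coq10b (44.2 FPKM, the others 28.3 to 30.2) and low for Klf10 (2.7 FPKM, the others 6.78 to 7.94). CT14 replicate 1 was low for Klf13 (8.19 FPKM, the others 11.2 to 11.5) and for Kynu (37.3 FPKM, the others 48.4 to 49.3). In limma, the dawn minus dusk difference was larger in WT than in ΔRRE by 3.72 for Arntl, 2.92 for Gm21981 and 1.52 for Golt1a on the log2 scale (adjusted p = 2.3e-06, 1.6e-05 and 0.045).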

How the results depend on the processing

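Of the 372 genes higher at dawn and 258 at dusk in limma, 356 and 246 were also called after rescaling the libraries by the median of ratios (396 and 289 called), 342 and 223 with the replicate block (377 and 254 called), and 227 and 156 with the 8 libraries as 2 groups (245 and 180 called). The counts were 148 and 77 at an adjusted p under 0.01, 207 and 124 with CT2 against CT14 only, and 196 and 122 with CT22 against CT10 only. Without a filter 171 genes were higher at dusk. With CT2 against CT14 only, the difference turned to -0.248 for Cry1, -0.738 for Ppp1r3b, -0.129 for Acmsd, -0.246 for Hist2h3c1 and -0.881 for Mir5133. The cause was not tested.

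Leaving out 1 library gave 193 to 384 genes at dawn and 114 to 239 at dusk, 0 to 4 for CT2 against CT22, 14 to 53 for CT14 against CT10, 6 to 80 for CT18 against CT6, 209 to 606 in ΔRRE and 2 to 5 for the difference between the genotypes. Of 96 named genes called between dawn and dusk, 60 were called without any 1 library and 36 lost the call without at least 1. Of 98 differences of named genes, 37 lost their call without a filter, 33 with the 8 libraries as 2 groups and 19 without a trend in the prior. Among them, and called without any 1 library, were Mt1, Cyp2a5, Elovl5, Angptl4, Nmrk1 and Cebpb without a filter, where more genes were tested (adjusted p from 0.0532 to 0.0969), and Cry1, Bhlhe40, Clic3, Elovl5, Fkbp5 and Gm21981 with the 8 libraries as 2 groups (adjusted p from 0.0823 to 0.246). CT2 against CT14 only ended 33 calls and CT22 against CT10 only 46. With a mean of at least 5 FPKM, 34 genes differed between CT14 and CT10 and 1 between the genotypes. CT2 against CT22 called 0 genes in limma with 1 FPKM added or with that filter (599 and 331 at an unadjusted p under 0.05) and 1 with the replicate block. The labels do not say whether the replicate numbers pair the samples. The deviations of libraries with the same number correlated at -0.087 to 0.219 over 15 pairs of time points, with a median of 0.103 and 8 over 0.1. These correlations cannot decide whether a replicate number marks a shared effect. No counting error can be given for FPKM without counts.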

Other observations

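The replicates of a time point differed along the dawn and dusk genes in some pairs. At CT10, replicate 1 exceeded replicate 2 in 271 of the 372 genes called at dawn (72.8%, median difference 0.25 on the log2 scale), against 57.0% of all genes tested. At CT6, replicate 1 was the higher one in 168 of the 258 genes called at dusk (65.1%, median 0.14), against 56.5% of all genes. At CT2 the replicates were near evenly split, with 187 of 372 (50.3%) and 124 of 258 (48.1%) higher in replicate 1. The CT10 libraries took part in the calls, so this is a description of their spread, and the CT6 libraries entered the dawn and dusk contrast only through the shared estimate of the spread.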
